A study of Mus musculus with 6 samples.

Results

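The 10 genes described here encode apolipoproteins and the factor that loads lipid onto them, measured in mouse teratomas. They are Apoa1, Apoa2, Apoa4, Apob, Apoc1, Apoc2, Apoc3, Apoe, Apom and Mttp, chosen by their symbols among 37008 gene names on the array. Together they have 17 probes. Of these genes, 4 have 1 probe, 5 have 2 and 1 has 3.

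The tumours grew under the skin of immunodeficient BALB/c nude mice from mouse embryonic stem cells (mESCs). In 3 tumours a miR-124a-3p mimic, a synthetic copy of a neuronal microRNA, was injected with a carrier called Atelogen QG. In 3 control tumours a miRNA negative control was injected with the same carrier. Both groups received 15 µg per 100 µL every 3 days until day 28, from a tumour size of at least 100 mm3 at about day 10, and mice were assigned at random. The labels give neither the age of the mice nor the number of stem cell clones, and a teratoma also holds vessels and immune cells of its host. Each tumour was cut into 2 pieces, and RNA of 1 piece was hybridised to 6 single-colour Agilent arrays. Between 63.4% and 65.9% of the 56605 probes were well above background on an array, and no spot was saturated. All 14 markers of nerve, muscle, cartilage and epithelium that were examined were above background in all 6 tumours. The arrays shared 1 slide, but the miR-124a arrays lay in one row of it and the control arrays in the other, so that slide row and group cannot be told apart.

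Apolipoproteins are the protein shell of the particles that carry fat and cholesterol through blood and tissue fluid. Apolipoprotein B is the scaffold of chylomicrons and very low density lipoprotein, and microsomal triglyceride transfer protein, made from Mttp, lipidates it as it is synthesised. Apolipoproteins A-I and A-II form high density lipoprotein, and the small C apolipoproteins and apolipoprotein E move between particles, steering lipases and receptors. Liver, intestine and yolk sac make most of them, whereas macrophages and astrocytes are known for making apolipoprotein E.

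The array reads each gene through a probe of 60 bases, and the probes below are those on which the comparisons turn, as the array's design gives them. The Apoa4 probe maps to chr9:46051206-46051266 on the plus strand of the mm9 build and the Apoa1 probe to chr9:46037921-46037980, also on the plus strand. The dimmer of 2 Apoa2 probes maps to chr1:173156320-173156379 on the plus strand, and a probe of Apoc3 to chr9:46041353-46041412 on the minus strand. The design lists 1 RefSeq transcript each for the Apoa4 and Apoa1 probes and 4 each for these Apoa2 and Apoc3 probes. Probes of different genes bind with different strength, so levels are compared between tumours for 1 probe at a time.
Apoa4: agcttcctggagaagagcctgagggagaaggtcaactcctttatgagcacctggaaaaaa
Apoa1: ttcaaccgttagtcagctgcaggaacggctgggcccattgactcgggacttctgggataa
Apoa2, dimmer probe: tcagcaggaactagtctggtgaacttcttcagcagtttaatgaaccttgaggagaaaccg
Apoc3, dimmest probe: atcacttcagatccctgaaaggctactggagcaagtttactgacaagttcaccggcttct

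Mttp has 2 probes, and they read different parts of the gene. The brighter maps to chr3:137753868-137753927 on the minus strand of mm9, and the design lists 3 RefSeq transcripts for it. The dimmer maps to chr3:137806360-137806419 on the same strand, with none listed. Its first 37 bases, in capitals below, precede the RefSeq transcription start of Mttp in GRCm38.p6, and its other 23 bases follow it.
Mttp, brighter probe: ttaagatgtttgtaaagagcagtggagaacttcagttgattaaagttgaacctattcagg
Mttp, dimmer probe: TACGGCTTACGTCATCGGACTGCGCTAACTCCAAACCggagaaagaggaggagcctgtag

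Of the 10 genes, Apoa4 alone passed the test, and it was 4.11-fold lower in the miR-124a tumours. A further 8 were tested and did not pass, and Apob was too dim to test. To be tested, a probe had to exceed background clearly in every tumour of one group or the other, and the brightest such probe stood for its gene. The test was limma's moderated test on log2 intensity, and p-values of 22946 genes were adjusted by Benjamini and Hochberg's method and held against 0.05. Over all genes tested, 3.18% passed in either direction, 2.69% as lower and 0.492% as higher. The log2 difference was below 0 for 7 of the 9 tested genes, against 50% of all genes. The median log2 difference of the 9 was -0.31, against -0.0004 for all genes. The groups did not overlap for 3 of the 9, namely Apoa1, Apoa2 and Apoa4, and for 35.4% of all genes. All 3 were lower, as were the non-overlapping groups of 20.2% of all genes. These 3 were also the genes with an unadjusted p under 0.05, which 27.1% of all genes reached. The counts and medians include genes admitted to the test only through the control group, Apoa1 and Apoc3 among them. The median of the 9 is the Apoc3 value itself. In a piece of whole tumour, fewer cells of a type and less RNA per cell cannot be told apart.

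**Figure D1:**
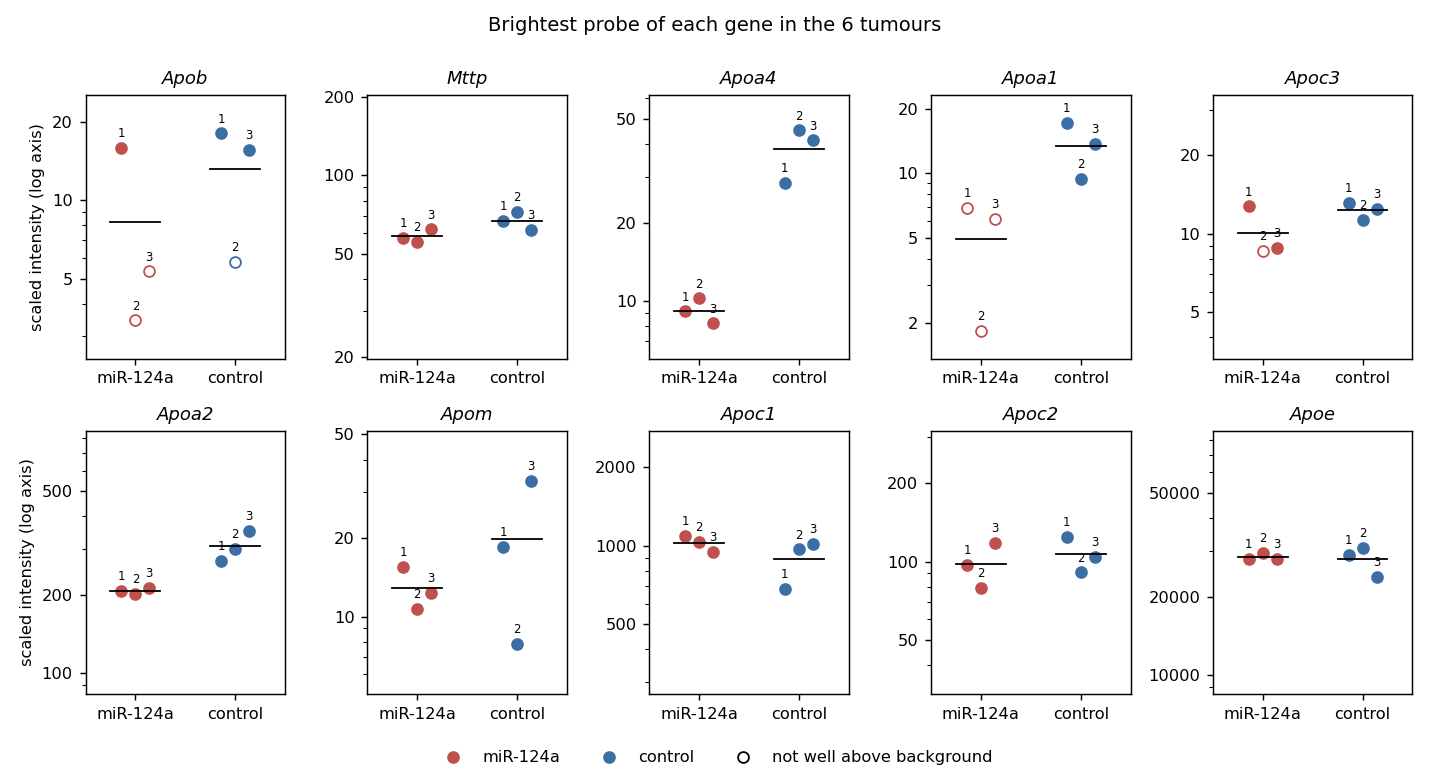
Scaled intensity, on a log axis, of the brightest probe of each gene in the 3 miR-124a tumours (left) and the 3 control tumours (right). Numbers give the replicate, bars the arithmetic mean, and open points tumours in which the probe was not well above background. The groups do not overlap for Apoa4, Apoa1 and Apoa2.

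The scaffold and its loading factor come first. Levels are given as scaled intensity, the processed intensity brought to a common 75th percentile over the 6 arrays. The brighter Apob probe read 15.9, 3.45 and 5.33 in the miR-124a tumours, against 18.02, 5.80 and 15.6 in the control tumours. It was well above background in 1 miR-124a tumour and 2 control tumours, and the groups overlapped. The other Apob probe was not well above background in any tumour, so no test was made for this gene.

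Mttp read 57.4, 55.7 and 62.0 in the miR-124a tumours, against 66.7, 72.1 and 61.6 in the control tumours. The highest miR-124a tumour lay just above the lowest control tumour. The log2 difference was -0.19 ± 0.10 (SE, n = 3 each; limma adjusted p = 0.266), with a 95% interval of -0.44 to 0.05. It was -0.12 with normexp background correction and quantile scaling after it, called normexp below. The dimmer Mttp probe, which spans the transcription start, was above background in no miR-124a tumour and 1 control tumour.

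Apoa1, Apoc3 and Apoa4 are neighbours on chromosome 9, in this order, with Apoa5 next to them. Apolipoprotein A-IV, the product of Apoa4, is made by enterocytes during fat absorption. Apoa4 read 9.11, 10.2 and 8.20 in the miR-124a tumours, against 28.4, 45.1 and 41.3 in the control tumours. All 3 miR-124a tumours lay far below the lowest control tumour, and the probe was above background in all 6. Apoa4 fell by 2.04 ± 0.19 on the log2 scale (SE; limma adjusted p = 0.0198), with a 95% interval of -2.51 to -1.57. By p-value it ranked 36 among all genes tested. In the miR-124a tumours the signal was close to the limit of the arrays, where the dimmest probe well above background had a processed intensity between 7.14 and 7.58.

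The size of the Apoa4 difference depended on the background correction. It was -0.50 with normexp, which adds an offset before the logarithm, at an adjusted p of 0.0237. With quantile scaling alone, the other step of that setting, it was -2.07 (limma adjusted p = 0.02). Leaving out 1 tumour at a time gave log2 differences between -2.24 and -1.91. The adjusted p rose to 0.0919 without miR-124a tumour 1, 0.0703 without miR-124a tumour 2 and 0.0606 without control tumour 2. In those 3 fits of 5 tumours, 1, 0 and 0 of all genes passed, with 4851, 4078 and 4723 at an unadjusted p under 0.05.

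Apoa1 encodes the main protein of high density lipoprotein. It read 6.89, 1.84 and 6.11 in the miR-124a tumours, against 17.1, 9.43 and 13.7 in the control tumours. The groups did not overlap, but in no miR-124a tumour did the probe clear background. Set against the array's limit, the dimmest probe well above background, Apoa1 was 1.82-fold lower in the miR-124a tumours. Some probes reading above that limit were not well above background, so this fold is no strict lower bound. The measured log2 difference was -1.61 ± 0.53 (SE; limma adjusted p = 0.124), so the gene did not pass. It was -1.01 without miR-124a tumour 2, and -0.19 with normexp.

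Apoc3 encodes an inhibitor of lipoprotein lipase and of particle uptake, and its 3 probes differed. The probe that stood for the gene, at chr9:46043606-46043665 in mm9, read 12.7, 8.58 and 8.84 in the miR-124a tumours, against 13.2, 11.3 and 12.5 in the control tumours. These groups overlapped, and the log2 difference was -0.31 ± 0.17 (SE; limma adjusted p = 0.287). It was -0.05 with normexp, -0.50 without miR-124a tumour 1 and -0.93 with the mean of the tested probes (adjusted p = 0.0520). The design lists 1 RefSeq transcript for this probe and 4 for each of the others.

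A second Apoc3 probe, at chr9:46041134-46041193, carries the polyadenylation signal AATAAA. It read 4.37, 5.25 and 2.55 in the miR-124a tumours, where it was never well above background, against 10.96, 10.86 and 12.2 in the control tumours. Set against the array's limit, it was 1.58-fold lower in the miR-124a tumours. Fitted as a probe of its own, a choice made after its values were seen, it had an adjusted p of 0.0401 over 35719 probes, of which 2.74% passed. The probe entered that fit only through the control tumours, and with normexp its difference was -0.15. The third Apoc3 probe, printed above, read 2.86, 1.61 and 2.31 in the miR-124a tumours, against 4.39, 4.93 and 4.54 in the control tumours. It was below the limit in all 6, so its difference was not tested.

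**Figure D2:**
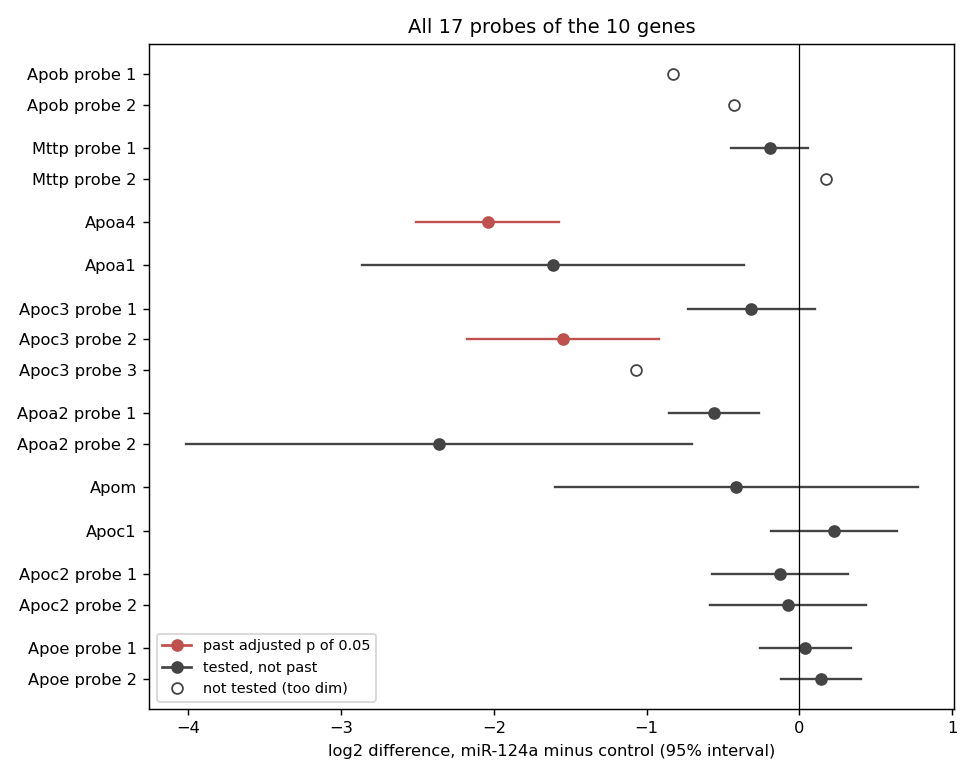
Log2 difference (miR-124a minus control) of each of the 17 probes with its 95% interval, from a fit of every tested probe. Red marks an adjusted p under 0.05 and open points are probes too dim to test. Apoc3 and Apoa2 each have probes with unlike differences, and the red Apoc3 probe was above background only in the control tumours.

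Among the genes for proteins of high density lipoprotein, Apom and the dimmer of 2 Apoa2 probes varied widely among the control tumours. The brighter Apoa2 probe read 207, 202 and 213 in the miR-124a tumours, against 269.9, 299 and 352 in the control tumours. The groups did not overlap, and the log2 difference was -0.56 ± 0.12 (SE; limma adjusted p = 0.0639). It did not pass, although it did with normexp (adjusted p = 0.0398) and with a variance trend and robust estimation (adjusted p = 0.0420). Those settings passed 6.64% and 6.88% of all genes. The 2 Apoa2 probes start 125 bases apart. The dimmer one read 2.89, 2.65 and 3.57 in the miR-124a tumours, against 8.12, 8.87 and 51.4 in the control tumours. It failed to clear background in each miR-124a tumour and, set against the array's limit, was 2.16-fold lower there. Control tumour 3 was far above the other controls in this probe, and fitted alone the probe had an adjusted p of 0.108. With the mean of both probes the Apoa2 difference was -1.46 (adjusted p = 0.0943).

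Apom encodes a lipocalin that carries sphingosine-1-phosphate on high density lipoprotein. It read 15.5, 10.7 and 12.3 in the miR-124a tumours, against 18.5, 7.85 and 33.2 in the control tumours. The control tumours held both the lowest and the highest value. The log2 difference was -0.41 ± 0.50 (SE; limma adjusted p = 0.624). It was 0.08 without control tumour 3, -0.96 without control tumour 2 and -0.14 with normexp.

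Apoc2, Apoc4, Apoc1 and Apoe are neighbours on chromosome 7, in this order. Apolipoprotein C-II activates lipoprotein lipase. The brighter Apoc2 probe read 96.8, 79.3 and 118 in the miR-124a tumours, against 124, 90.8 and 104 in the control tumours. The groups overlapped, and the log2 difference was -0.13 ± 0.18 (SE; limma adjusted p = 0.681), with an interval of -0.58 to 0.32. Leaving out 1 tumour gave -0.27 to 0.014, the lowest without miR-124a tumour 3 and the highest without miR-124a tumour 2, and it was -0.24 without control tumour 2 and -0.01 without control tumour 1. The other Apoc2 probe gave -0.08.

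Apoc1 encodes an inhibitor of lipoprotein uptake and, in humans, of cholesteryl ester transfer protein. It read 1094, 1035 and 950.0 in the miR-124a tumours, against 682, 968 and 1016 in the control tumours. Control tumour 1 was the lowest and the other tumours overlapped. The log2 difference was 0.23 ± 0.17 (SE; limma adjusted p = 0.423), with an interval of -0.19 to 0.64. Without control tumour 1 it was 0.047 (adjusted p = 0.808).

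Apoe encodes the ligand through which remnants, and particles in the brain, bind receptors on cells. Its brighter probe, at chr7:20281732-20281791 on the minus strand of mm9, read 27846, 29370 and 27883 in the miR-124a tumours, against 28786, 30832 and 23740 in the control tumours. The groups overlapped, with control tumour 3 the lowest. The log2 difference was 0.04 ± 0.12 (SE; limma adjusted p = 0.861), and the interval ran from -0.26 to 0.33. Without control tumour 3 it was -0.07, and with quantile scaling 0.28 (adjusted p = 0.152) and with normexp 0.24 (adjusted p = 0.170). The second Apoe probe read 7835, 8094 and 7773 in the miR-124a tumours, against 7651, 7557 and 6365 in the control tumours. These groups did not overlap, but the log2 difference was only 0.14 (limma adjusted p = 0.444 as a probe of its own).
Apoe, brighter probe: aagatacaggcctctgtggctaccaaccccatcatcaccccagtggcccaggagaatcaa

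Other genes of lipoprotein handling were read from lists, each counted in the same fit. Among partners of assembly, 1 of 16 tested genes was lower, none was higher, and the median log2 difference was -0.10. The gene was Prap1, whose mouse product binds lipid and microsomal triglyceride transfer protein. It read 10.3, 11.9 and 11.4 in the miR-124a tumours, against 33.03, 33.9 and 19.0 in the control tumours. Prap1 fell by 1.31 ± 0.24 on the log2 scale (SE; limma adjusted p = 0.0462), and by 0.31 with normexp (adjusted p = 0.0765). Surf4, a cargo receptor that takes lipoproteins out of the endoplasmic reticulum, had -0.25 (adjusted p = 0.122), Mia2 -0.25 (adjusted p = 0.224) and Mogat2 0.23 (adjusted p = 0.409).

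Among genes that remodel particles, 0 of 10 tested passed in limma, against 1 at an unadjusted p under 0.05. The nearest was Lpl, lipoprotein lipase itself, which read 813, 874 and 819 in the miR-124a tumours, against 1371, 1596 and 1132 in the control tumours. Its log2 difference was -0.70 ± 0.14 (SE; limma adjusted p = 0.0566). The lipid exporters Abca1 and Abcg1 had 0.32 (adjusted p = 0.197) and 0.19 (adjusted p = 0.255). Lpl was the 1 gene of this list that passed with quantile scaling, where 3.72% of all genes passed. The same held with normexp, which includes that scaling. Of 15 alternatives tried, Lpl passed in 6 and did not pass in 9. It passed in limma with the mean of its probes (adjusted p = 0.0436) and with array weights (adjusted p = 0.0431), which do not use quantile scaling.

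Among receptors, 1 of 14 tested genes was lower, none was higher, and the median was 0.04. Cd36, a scavenger receptor for oxidised lipoproteins and fatty acids, read 73.0, 66.1 and 86.2 in the miR-124a tumours, against 126, 144 and 123 in the control tumours. Cd36 fell by 0.81 ± 0.13 on the log2 scale (SE; limma adjusted p = 0.0366), and by 0.46 with normexp. Lrp8, the apolipoprotein E and reelin receptor of neurons, read 328, 386 and 327 in the miR-124a tumours, against 243, 183 and 224 in the control tumours. Its log2 difference of 0.69 did not pass (adjusted p = 0.0571), but it did with normexp. With the mean of its probes it was 0.35 (adjusted p = 0.0872).

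Of 16 other genes with an apolipoprotein's name or role, 8 were tested and 1 was lower, with a median of -0.17. This was Apool, known as a mitochondrial inner membrane protein, which read 144, 129 and 154 in the miR-124a tumours, against 202, 239 and 229 in the control tumours. Apool fell by 0.65 ± 0.12 on the log2 scale (SE; limma adjusted p = 0.0449). Apol8 had 1.16 (adjusted p = 0.133; 0.16 with normexp), Apoh -0.61 (adjusted p = 0.170) and Apoo -0.25 (adjusted p = 0.277). Apoa5, next to Apoa4, was not well above background in any tumour, and Apoc4, next to Apoc2, was so in 1 tumour of each group.

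Among transcription factors known to act on apolipoprotein genes, 1 of 19 tested was lower, none was higher, and the median was -0.12. Hnf4a, a nuclear receptor of liver and intestine, read 17, 12.6 and 22.5 in the miR-124a tumours, against 36.3, 43.7 and 55.4 in the control tumours. Hnf4a fell by 1.40 ± 0.25 on the log2 scale (SE; limma adjusted p = 0.0458), and by 0.45 with normexp. Cebpa had -0.58 (adjusted p = 0.105), Nr1h4 -0.74 (adjusted p = 0.123) and Ppara -0.61 (adjusted p = 0.143).

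The calls of Prap1, Cd36, Apool and Hnf4a each lay close to the threshold. Without miR-124a tumour 1 their adjusted p-values were 0.154, 0.143, 0.151 and 0.150. Without miR-124a tumour 2 they were 0.141, 0.123, 0.147 and 0.125. Without miR-124a tumour 3 they were 0.105, 0.0454, 0.0830 and 0.0454. Without control tumour 1 they were 0.0939, 0.0821, 0.0750 and 0.0789, and without control tumour 2 0.117, 0.102, 0.116 and 0.118. Without control tumour 3 they were 0.0310, 0.0647, 0.0830 and 0.0815. With no filter on dim probes they were 0.104, 0.0853, 0.0967 and 0.103. With array weights Apool had 0.0555 and Hnf4a 0.0645, and with the mean of its probes Apool had 0.117.

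**Figure D3:**
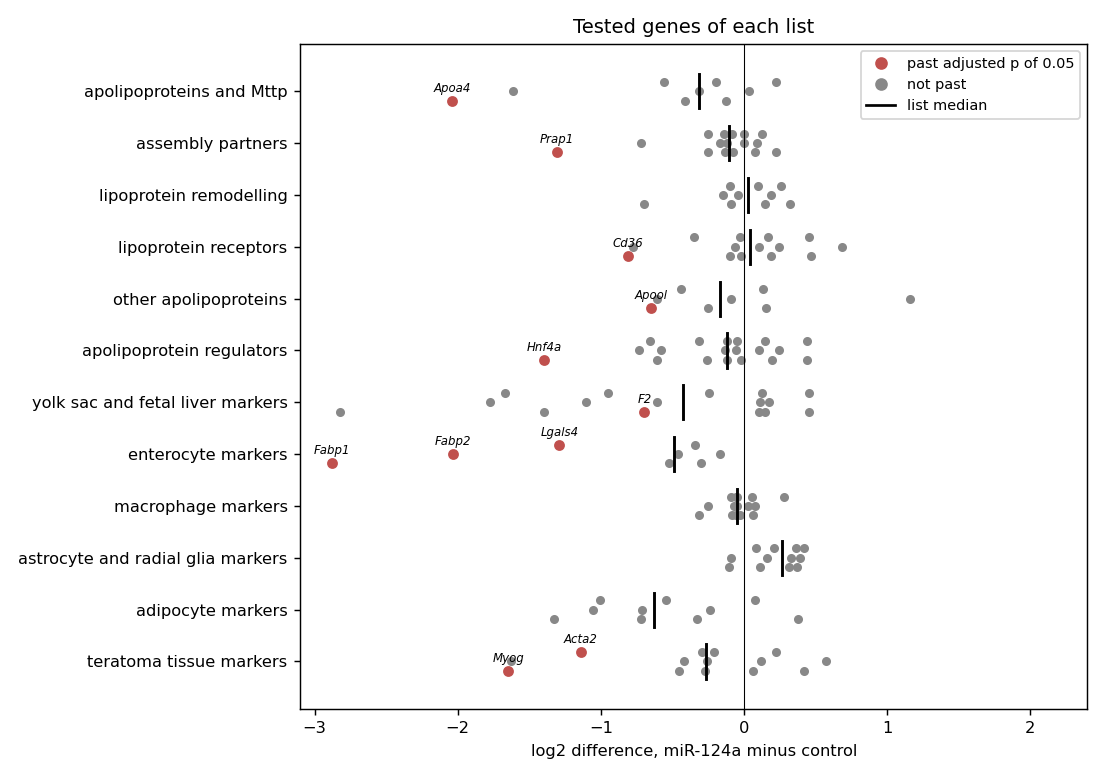
Log2 difference (miR-124a minus control) of each tested gene, by list, with the median of the list as a black bar. Red points passed an adjusted p of 0.05. Of the apolipoproteins and Mttp, Apoa4 passed. The enterocyte list holds 3 red points, Fabp1, Fabp2 and Lgals4.

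Markers of cells that could make these proteins were counted beside them. Of 8 tested enterocyte markers, 3 were lower, and the median was -0.49. Fabp1, a fatty acid carrier of liver and intestine, read 11.7, 8.5 and 7.15 in the miR-124a tumours, against 64.4, 70.0 and 63.0 in the control tumours. Like Fabp6, it entered the test, and so the count and median, only through the control tumours. It was above background in 1 miR-124a tumour, so its difference rests on values close to the limit there. The measured log2 difference was -2.88 (limma adjusted p = 0.0148), and -0.87 with normexp. Fabp2, the intestinal carrier, read 11.1, 10.5 and 12.0 in the miR-124a tumours, against 41.0, 39.6 and 59.5 in the control tumours, with an adjusted p of 0.0182. Its log2 difference was -2.04, and -0.66 with normexp. Lgals4, a lectin of gut epithelium, had a log2 difference of -1.29 (adjusted p = 0.0278), and Vil1 had -0.46 (adjusted p = 0.185). The summed level of the 8 ran from 758 to 1069 in the miR-124a tumours, against 1280 to 1480 in the control tumours, and Anpep and Lgals4 made up 77.9% to 87.0% of it. Of the 18 genes of the list, 7 were not above background in any tumour, among them the defining markers Cdh17, Sis, Alpi and Cdx2. The other 5 tested markers did not pass. Fabp1, Fabp2 and Lgals4 were lower beside Apoa4, and their part in its difference was not tested.

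Each call of the enterocyte list was lost in some fits without 1 tumour. For Fabp1 the adjusted p was 0.0597 without miR-124a tumour 2, 0.0545 without control tumour 1 and 0.0598 without control tumour 2. For Fabp2 it was 0.0898 and 0.0703 without miR-124a tumours 1 and 2, and 0.0576 and 0.0598 without control tumours 1 and 2. For Lgals4 it was between 0.0596 and 0.126 in all such fits except that without miR-124a tumour 3 (0.0362).

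Of 16 tested markers of yolk sac and fetal liver, 1 was lower, and the median was -0.43. Alb, Hpx, Fgg, Fgb and Apoh entered the test only through the control tumours, and Tdo2 only through the miR-124a tumours. The median therefore leans on the filter, and no lower level of the list is read from it. F2, prothrombin, had a log2 difference of -0.70 (limma adjusted p = 0.0466; -0.40 with normexp), and leaving out any 1 of the 6 tumours raised the adjusted p to between 0.0810 and 0.141. Hpx had -0.95 (adjusted p = 0.0763). The summed level of the 16 ran from 6052 to 12758 in the miR-124a tumours, against 7466 to 7813 in the control tumours, and Ttr, at 9994, made up most of the highest sum.

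Control tumour 3 stood apart in some plasma protein genes of the liver type. Of the 16 tested markers of yolk sac and fetal liver, it was the highest control in 9 and the lowest in 2. It was more than 2 times both other controls in 5, which were Afp, Ahsg, Alb, Fgb and Fgg. The same shares over all genes were not counted, so these counts do not show that the list is unusual. In others it was not set apart. Ttr read 3289, 9994 and 3204 in the miR-124a tumours, against 4686, 4265 and 3888 in the control tumours, and Trf, transferrin, read 1730, 2126 and 1766 in the control tumours. Afp, alpha-fetoprotein, read 108, 26.5 and 78.6 in the miR-124a tumours, against 98.5, 99.6 and 738 in the control tumours. Alb, albumin, read 5.90, 4.02 and 9.08 in the miR-124a tumours, against 20.8, 26.7 and 137 in the control tumours. The fibrinogen genes Fgb and Fgg reached 38.1 and 38.4 in control tumour 3 and at most 15.1 and 8.85 in the other control tumours. Afp, Ahsg, Fgb, Fgg, Trf and Ttr were singled out after their values were seen. The dimmer Apoa2 probe and Apom were also highest in control tumour 3, and a link between them and these genes was not tested. Without control tumour 3 the log2 difference was -1.97 for Apoa4, -1.58 for Apoa1 and -0.46 for Apoa2.

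**Figure D4:**
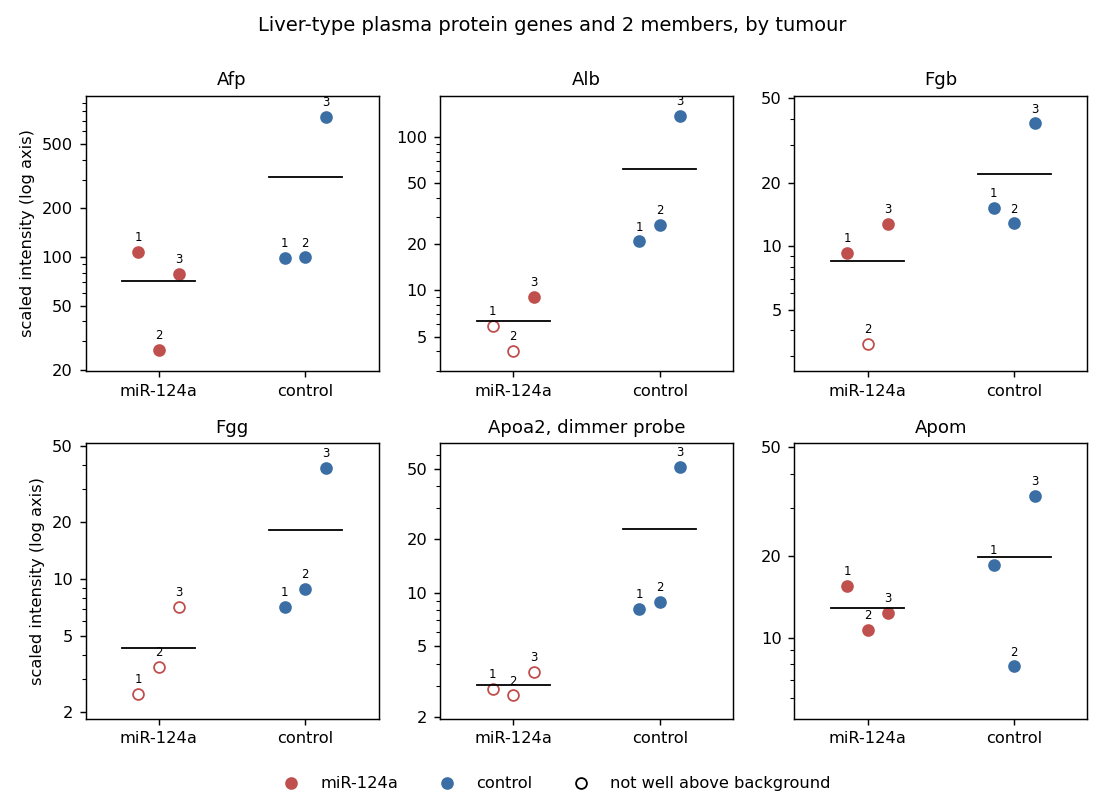
Scaled intensity, on a log axis, of 4 plasma protein genes, the dimmer Apoa2 probe and Apom in the 3 miR-124a tumours (left) and the 3 control tumours (right). Numbers give the replicate, bars the arithmetic mean, and open points values not well above background. Control tumour 3 is the highest of the 6 in every panel.

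Macrophages and astrocytes, known sources of apolipoprotein E, were read the same way. In limma 0 of 15 macrophage markers passed, none reached an unadjusted p under 0.05, and the median was -0.05. In limma 0 of 12 astrocyte and radial glia markers passed, 5 had an unadjusted p under 0.05, and the median was 0.26. The summed level of the 12 ran from 76417 to 79505 in the miR-124a tumours, against 58354 to 70433 in the control tumours. Sparcl1, Aldoc and Fabp7 were the brightest of the 12 and weigh most in this sum. Sparcl1 alone read 26705 to 29692 in the miR-124a tumours, against 21276 to 25384 in the control tumours. Gja1, a gap junction gene of astrocytes, had a log2 difference of 0.37 (adjusted p = 0.0833) and Fgfr3 had 0.39 (adjusted p = 0.115). With normexp, 3 of the 12 passed, Gja1 and Sparcl1 among them. Of 10 adipocyte markers, 0 passed in limma and 3 had an unadjusted p under 0.05, with a median of -0.63. Fabp4 had -1.0 (adjusted p = 0.0736) and Cidec -1.33 (adjusted p = 0.0953). Of the 14 general tissue markers, the muscle genes Myog (-1.65, adjusted p = 0.0182) and Acta2 (-1.14, adjusted p = 0.0204) were lower. Without miR-124a tumour 1 or 2, or control tumour 1 or 2, the adjusted p of both was between 0.0576 and 0.0937.

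The genes whose profile over the 6 tumours lay nearest to that of Apoa4 were sought by the root mean square difference of centred log2 values. Among the nearest were Atcayos (0.146), Pax7 (0.168), Atp4b (0.181) and a probe for a long intergenic RNA on chromosome 12 (0.182), against a median of 1.06 over all genes. They were picked for small values, so lying under the median was certain. Their log2 differences were -2.03, -1.94, -1.90 and -1.93, against -2.04 for Apoa4. A group difference of like size brings a gene near by this measure, so it shows no likeness beyond that. Pax7 is a factor of muscle stem cells and Atp4b a subunit of the gastric acid pump. Pax7 read 105, 131 and 129.96 in the miR-124a tumours, against 322, 621 and 499 in the control tumours. Atp4b did not clear background in the miR-124a tumours.

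The 250 bases before a transcription start were searched on both strands for binding motifs of the hepatic regulators and for a TATA box. RefSeq's table for GRCm38.p6 held 11 such windows for 8 of the 10 genes, with none for Apoc1 and Apoc3. The HNF4 motifs CAAAGTCCA and CAAAGGTCA and the palindromic HNF1 motif were in none of them, and in 0.384%, 0.426% and 0.00913% of 32851 windows of all genes. At shares this low, a match in 11 windows was unlikely from the start. Only exact matches were sought, so their absence says nothing about sites that depart from these motifs. TATAAA was in 3 windows, those of Apob, 1 of Apoa2 and 1 of Apoe, and in 12.4% of all windows. In the Apoa2 window it lies 212 to 207 bases before the start. In the Apoe window matches lie 100 to 95 and 96 to 91 bases before the start. Whether any match acts as a TATA box was not tested. In Apob TATAAA lies 60 to 55 bases before the start that the window was taken from. That window, chr12:7977427-7977676, runs past the first base of the gene in RefSeq, chr12:7977629. The Apoa4 window, of the gene that passed the test, is chr9:46240594-46240843 on the plus strand of GRCm38.p6.
Apoa4, 250 bases before the start: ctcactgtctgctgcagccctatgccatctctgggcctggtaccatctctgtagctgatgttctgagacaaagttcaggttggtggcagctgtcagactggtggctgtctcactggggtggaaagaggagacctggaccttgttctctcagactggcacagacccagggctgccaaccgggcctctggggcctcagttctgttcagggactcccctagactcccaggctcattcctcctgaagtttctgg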

How the data were processed

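Gene expression was measured in 3 miR-124a and 3 control teratomas. The deposited scanner files hold intensity values from Agilent Feature Extraction 11.5.1.1, per the submitters' processing notes. Per the file headers these are processed signals, already corrected for background. The authors' deposited value table holds log2 values. They differed from the values used here by an SD of 0.0029 over all probes and arrays, after each array's mean difference was removed. Those mean differences were at most 0.0063 in size, so scale, centring and direction are the same. Its columns had medians of -2.97, -2.99 and -2.98 for miR-124a tumours 1 to 3, and -2.98, -3.07 and -2.98 for control tumours 1 to 3.

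The processed intensity was divided by each array's 75th percentile over non-control probes and log2-transformed. Spots flagged as outliers were left out. Genes were named through RefSeq accessions for 32994 probes, through symbols for 10224, through older symbols for 520 and by the file's own name for 12867. Differences are miR-124a minus control, from lmFit and eBayes in limma 3.58.1 (R 4.3.3) over 35719 probes and 22946 genes. Folds set against the array's limit compare the brighter group with the dimmest probe well above background on each array. They are no strict bounds, because some probes that read higher were not well above background. The dimmer Mttp probe, at 9.34 in miR-124a tumour 1, was among them. The number of arrays limits the precision.

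The genes and lists were chosen with earlier results of these data known. Named in each list were the genes past the threshold and up to 4 with the smallest p, and the 5 genes nearest to Apoa4. Some genes that this rule names are not reported here. Tried as alternatives were quantile scaling, normexp with an offset of 50 followed by quantile scaling, the authors' table, other filters and the mean of probes. A replicate block, other variance models and leaving out each tumour were tried too. Whether tumours of the same number share anything is not stated. Deviations from the group means correlated at -0.155, -0.039 and -0.065 for numbers 1, 2 and 3, and between -0.208 and 0.337 for unlike numbers. Same-numbered tumours were thus not more alike, but deviations cancel within so small a group, so these values cannot settle whether tumours were paired.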

Additional observations from a re-analysis of the deposited data

How the results depend on the processing

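The count of passing apolipoprotein and Mttp genes was 1, as it was with the authors' table, quantile scaling, array weights, averaged probes, all probes admitted, or those above background on every array. It was 2 with normexp, 2 with a variance trend and robust estimation and 2 with every probe fitted, the last an alternative chosen after seeing the data. It was 0 with the replicate block, where Apoa4 had an adjusted p of 0.113; no gene of the array passed in that fit, with 4954 at an unadjusted p under 0.05. Leaving out 1 tumour gave 0 to 1. Over all genes the count was 730; it was 1524 with normexp, 1579 with the variance trend, 81 of 37001 genes with no filter, 0 with the replicate block, and 0 to 365 when 1 tumour was left out. Of all calls 84.5% were lower, against 62.2% with normexp and 77.5% with quantile scaling. Leaving out 1 tumour moved Apoc2 between -0.27 and 0.014, Apoc1 between 0.047 and 0.33, Apoe between -0.071 and 0.12 (0.28 with quantile scaling and 0.24 with normexp), Apom between -0.96 and 0.076 and Cd68, a macrophage marker, between -0.16 and 0.023, and none of these passed. The sign turned without miR-124a tumour 2 for Apoc2, without control tumour 3 for Apoe and Apom, and without control tumour 1 for Cd68. The cause of these shifts was not tested. Signals near background limit Apoa1, Apob, Apoc3 and the dimmer Apoa2 probe. Normexp also gave smaller differences for Apoa4, Prap1, Hnf4a, Cd36, F2, Fabp1, Fabp2 and Apol8.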
